A study of Rattus norvegicus with 24 samples.

Results

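The nuclear genes for mitochondrial ribosomal proteins were followed in rat striatum and whisker follicles after self-administration of methamphetamine (MA) or saline (SA). Members were the rows of the expression table whose symbol is Mrpl or Mrps followed by a number and at most 1 letter. The rule took 73 of 17711 rows, which carry 69 symbols, 41 of the large subunit (Mrpl) and 28 of the small subunit (Mrps). The symbols Mrpl1, Mrpl30, Mrpl36 and Mrpl53 each stand on a pair of rows. The study compared both tissues of male Sprague-Dawley rats that had first been trained to press a lever for food pellets and then self-administered through an intravenous catheter for 2 h a day over 16 days. MA rats received 0.05 mg/kg of MA per infusion and SA rats received saline in the same way. Each of the 4 groups, striatum MA, striatum SA, whisker follicle MA and whisker follicle SA, held 6 libraries, and each library came from bulk tissue of 1 rat, the striatum and follicle libraries being made from the same animals. Levels are FPKM (fragments scaled to the length of the transcript and to the mapped fragments of the library), which corrects for transcript length and therefore allows levels to be compared between genes.

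Mitochondria carry ribosomes of their own, which translate the few proteins encoded in mitochondrial DNA, all of them subunits of the respiratory chain and ATP synthase. The ribosomal RNAs come from mitochondrial DNA, but every mitochondrial ribosomal protein is encoded in the nucleus, made on cytosolic ribosomes and imported. The large subunit joins amino acids to the growing chain, the small subunit reads the messenger RNA, and some proteins of each subunit have bacterial counterparts whereas others exist only in mitochondria. The letter in the symbol does not always give the place in the particle, since the products of Mrps30 and Mrps18a sit in the large subunit and the product of Mrps36 is now assigned to the oxoglutarate dehydrogenase complex.

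The promoters of these genes are known for binding sites of NRF1, GABPA and YY1, transcription factors of nuclear genes for mitochondrial proteins, so the promoters of 4 members that recur in the results below are shown. They were taken from RefSeq on the rat build GRCr8, from 250 bases before to 50 bases after the annotated start. RefSeq gave 56 promoters for the 69 symbols. Mrpl14 and Mrps21 each had more than 1 of them, so fewer than 56 symbols were covered. Both genes therefore count more than once in the shares below. Each sequence shown runs in the direction of transcription. Capitals mark the motifs GCATGCGC (NRF1 core), CCGGAAG (GABPA) and AAGATGGCG (YY1), searched on both strands. Overlapping matches are joined into 1 run of capitals. Mrpl32 lies at chr17:55260401-55260700 on the plus strand, Mrpl42 at chr7:32028473-32028772 on the minus strand, Mrps10 at chr9:21122404-21122703 on the minus strand and Mrps33 at chr4:69566889-69567188 on the minus strand.
Mrpl32: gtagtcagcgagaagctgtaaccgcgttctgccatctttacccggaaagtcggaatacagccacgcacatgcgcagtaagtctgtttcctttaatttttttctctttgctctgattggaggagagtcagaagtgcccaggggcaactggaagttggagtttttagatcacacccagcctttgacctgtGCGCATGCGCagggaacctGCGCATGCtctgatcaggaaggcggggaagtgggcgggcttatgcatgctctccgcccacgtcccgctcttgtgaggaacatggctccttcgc
Mrpl42: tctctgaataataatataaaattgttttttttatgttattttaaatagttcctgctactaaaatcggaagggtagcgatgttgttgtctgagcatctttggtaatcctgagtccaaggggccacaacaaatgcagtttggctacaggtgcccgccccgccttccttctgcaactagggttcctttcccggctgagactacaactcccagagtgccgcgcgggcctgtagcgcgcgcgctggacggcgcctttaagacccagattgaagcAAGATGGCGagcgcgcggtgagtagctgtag
Mrps10: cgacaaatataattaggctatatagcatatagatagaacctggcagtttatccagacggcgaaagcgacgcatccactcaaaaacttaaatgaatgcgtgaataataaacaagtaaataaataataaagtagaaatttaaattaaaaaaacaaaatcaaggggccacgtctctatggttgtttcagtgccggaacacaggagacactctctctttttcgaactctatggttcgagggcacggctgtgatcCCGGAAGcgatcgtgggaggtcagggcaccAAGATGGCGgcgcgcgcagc
Mrps33: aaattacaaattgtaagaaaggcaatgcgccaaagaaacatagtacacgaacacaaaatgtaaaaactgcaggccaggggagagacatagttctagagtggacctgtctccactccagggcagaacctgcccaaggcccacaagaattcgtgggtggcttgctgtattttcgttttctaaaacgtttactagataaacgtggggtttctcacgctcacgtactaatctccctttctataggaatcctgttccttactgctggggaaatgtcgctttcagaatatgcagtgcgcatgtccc
Mrpl32 held the NRF1 core at 3 places, 2 of which are the same bases read on opposite strands with a shift. Mrpl42 held the YY1 motif, Mrps10 held the GABPA and YY1 motifs, and the window of Mrps33 held none of these letters.

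Across the 56 member promoters, the GABPA motif was found in 18 (32.1%), against 8.75% of all 33469 promoters of the same length and 10.7% of the 21851 that belong to protein-coding genes. The YY1 motif was found in 9 (16.1%), against 1.73% and 2.07%, and the NRF1 core in 5 (8.93%), against 2.47% and 3.11%. At least 1 of the 3 motifs was present in 27 member promoters (48.2%), in 18 of 34 of the large and 9 of 22 of the small subunit, against 12% of all and 14.7% of protein-coding promoters. These matches are a description of sequence and say nothing about binding in these tissues.

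Marker genes bore out the tissue labels, since the summed FPKM of 7 medium spiny neuron markers was 2169 to 5300 in striatum SA and 3.35 to 23.6 in whisker follicle SA, and that of 6 hair shaft keratins was 15470 to 76847 in follicle SA and at most 19.7 in striatum SA. The 23.6 came from follicle SA library 5, against 3.35 to 5.27 in the other SA libraries. That library also had an oligodendrocyte marker sum of 66.5 FPKM, against 5.27 to 8.54 in the others. The hair shaft sum of 19.7 came from striatum SA library 2, against 0.646 to 1.13 in the others. The part of these transcripts in the member values was not tested. The table holds no read counts. The steps between low FPKM values showed that the number of fragments that 1 FPKM stands for varied from 0.888 to 1.2 times that of a reference library in the striatum and from 0.749 to 1.57 times in the follicle, so depth is known only relative to another library. Over all rows tested, the median deviation of every library from its tissue mean lay between -0.04 and 0.04 on the log2 scale, so the libraries of a tissue already shared a common median. A bulk measurement cannot tell fewer cells of a type from less RNA per cell.

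In whisker follicle SA, library 0 stood apart (libraries are named by the index of their column, 0 to 5). It was the lowest SA library for 57 of 66 members (86.4%), against 37.6% of all rows, and the members made up 0.237% of its FPKM sum, against 0.372% to 0.545% in the other SA libraries and 0.312% to 0.393% in MA. It also had the highest hair shaft sum (76847) and the lowest erythrocyte marker sum (0.393) of the SA libraries. The member counts and leading members of the follicle are therefore also given without it.

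Of the 73 rows, 66 had a mean FPKM of at least 1 in each tissue and were tested, 38 of the large and 28 of the small subunit. Both rows of Mrpl36 and both of Mrpl53 were listed at 0 in all 24 libraries. The first Mrpl1 row reached at most 0.269 and both Mrpl30 rows stayed below the filter. The second Mrpl30 row was listed at 0, 0.262, 0.59, 0.903, 1.71 and 3.66 FPKM in the 6 follicle SA libraries and at 0 in all 6 MA libraries, with the 0 of the SA group in library 0. The first Mrpl30 row was at 1.56 and 3.66 FPKM in follicle SA libraries 3 and 5 and at 0 in the other SA libraries. In MA it was at 0.178 in library 4 and at 0 in the others. Since a gene can be listed at 0 for want of an estimate, no fold is given.

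In SA rats the mitochondrial ribosomal protein genes were among the more abundant transcripts of both tissues. In the striatum the median member mean was 28.4 FPKM for the large subunit, at percentile 76.7 of all rows tested, and 25 FPKM for the small subunit, at percentile 73.5. In the follicle the medians were 44.9 FPKM (percentile 78.4) and 57.5 FPKM (percentile 82). The highest members of the striatum were Mrpl54 at 93.1 ± 10.8 FPKM (SD, n = 6, as for all means below), Mrpl27 at 86.6 ± 7.74 and Mrpl20 at 78.2 ± 5.03 for the large subunit, and Mrps21 at 72 ± 5.95, Mrps16 at 71.8 ± 7.32 and Mrps18a at 68.8 ± 4.95 for the small subunit. Mrpl27 is the counterpart of a bacterial protein close to the peptidyl transferase centre, and Mrpl54 has no bacterial counterpart. The SA ranges of Mrpl54 (79 to 111) and Mrpl27 (75.5 to 96.4) overlapped, as did those of Mrps21, Mrps16 and Mrps18a. The lowest members tested were the second Mrpl1 row at 2 ± 0.561, Mrps28 at 3.17 ± 0.477 and Mrpl40 at 5.25 ± 0.404 FPKM.

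The order of levels in the follicle resembled that in the striatum, with a rank correlation of 0.82 over the 66 genes, which share library preparation and annotation. Mrpl54 again led the large subunit at 392 ± 164 FPKM, followed by Mrpl23 at 315 ± 147 and Mrpl27 at 256 ± 116. Mrps33, a small subunit protein found only in mitochondria, reached 376 ± 164, ahead of Mrps21 at 249 ± 117 and Mrps12 at 183 ± 74.1. The SDs of these neighbours overlapped. Within libraries the order was steadier, with Mrpl54 above Mrpl23 and Mrps33 above Mrps21 in 6 of 6 SA libraries, and Mrpl23 above Mrpl27 in 5 of 6. The lowest were Mrps28 at 3.3 ± 1.18, Mrpl40 at 6.19 ± 1.56 and Mrpl15 at 6.3 ± 3.98 FPKM.

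**Figure D1:**
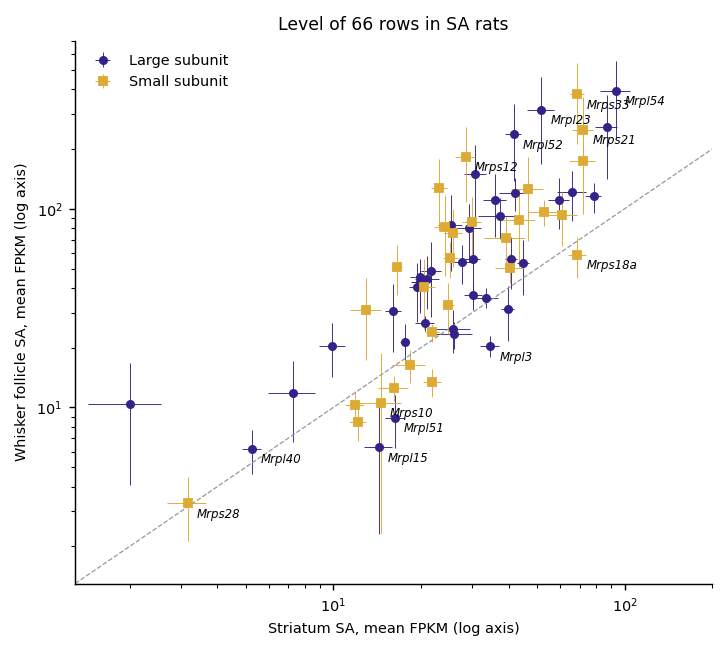
Mean FPKM of the 66 rows tested in SA rats, whisker follicle (vertical, log axis) against striatum (horizontal, log axis), with circles for the large and squares for the small subunit, bars for the SD over 6 libraries and a dashed line at equal values. Most members lie above the line, and Mrpl15, Mrpl51, Mrpl3 and Mrps10 are among those below it.

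Most members were higher in the follicle than in the striatum of SA rats. By limma, 39 of 66 members were called higher (a fold of 1.5 or more with an adjusted p under 0.05, the definition of a differentially expressed gene or DEG used throughout), 23 of the large and 16 of the small subunit, against a background of 32% of all rows tested. Called lower were 4 members (Mrpl3, Mrpl15, Mrpl51 and Mrps2), 3 of the large and 1 of the small subunit, against 42.5% of all rows. The median log2 fold change was 0.86 for the large and 0.84 for the small subunit, against -0.24 for all rows and 3.26 for cytosolic ribosomal proteins. FPKM sums differ between the tissues. With the libraries brought to a common median, the member medians became 1.31 and 1.3 and 1 member was lower. After quantile normalization they were 0.78 for the large and 0.43 for the small subunit, with 35 members higher and 5 lower. No share or median over all rows is given for either scaling, so these values have no background.

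Mrps12, the counterpart of a bacterial protein at the decoding centre, had the largest difference, 28.5 ± 2.2 FPKM in striatum and 183 ± 74.1 in follicle (log2 fold change 2.52, SE 0.26, limma adjusted p = 6.22e-07). Mrpl23, whose bacterial counterpart lines the exit of the peptide tunnel, differed by 2.41 and Mrpl52, found only in mitochondria, by 2.35 on the log2 scale. In the opposite direction, Mrpl15 was at 14.3 ± 1.58 FPKM in striatum and 6.3 ± 3.98 in follicle (log2 fold change -1.23, SE 0.28, adjusted p = 0.00098), and Mrpl51 was at 16.3 ± 1.27 and 8.88 ± 2.62 (log2 fold change -0.84, SE 0.15, adjusted p = 0.000137). Mrps10 had a log2 fold change of -0.75 that did not pass (SE 0.42, adjusted p = 0.109), with SA follicle values from 1.67 to 24.8 FPKM.

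The question for the striatum was whether MA self-administration went with a change of these genes in the brain region of drug reward. No member passed the test in the striatum, and the fold changes were small and balanced. The count of DEGs was 0 of 66, against a background of 0.00943% (1 of 10607 rows), with limma adjusted p values from 0.577 upwards. The fold changes of 33 members lay above and 33 below 0, and the median was -0.0021 for the large and 0.01 for the small subunit, against 0.0022 for all rows. At an unadjusted p under 0.05, 5 members were higher (Mrpl21, Mrpl42, Mrps17, Mrps18c and Mrps21; 7.58% of members against a background of 5.38%) and 2 were lower (Mrps28 and Mrps31; 3.03% against 2.88%). Shares this close to the background say nothing particular of these genes.

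Mrps28, the member with the smallest p, had SA values from 2.36 to 3.62 FPKM with a median of 3.28, and MA values from 1.82 to 3.04 with a median of 2.17. The ranges overlapped through SA library 0 and MA library 1, and the log2 fold change was -0.36 (SE 0.11, 95% interval -0.60 to -0.12, adjusted p = 0.577). Mrpl42, a large subunit protein without a bacterial counterpart whose promoter is shown above, had SA values from 28 to 32.4 FPKM with a median of 30.3, and MA values from 30.8 to 51.7 with a median of 34.8. MA libraries 4 and 5 held its highest values, 51.7 and 48, while the other 4 MA libraries lay between 30.8 and 35.9. Its log2 fold change was 0.32 (SE 0.12, 95% interval 0.06 to 0.59, adjusted p = 0.577). The same libraries held the highest values of Mrps21, 112 in MA library 4 and 94.6 in MA library 5, against SA values of 63.2 to 81.2 FPKM (log2 fold change 0.26, SE 0.11, adjusted p = 0.593).

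Erythrocyte markers were also higher in MA striatum, with a summed FPKM of 265 to 2214 against 140 to 352 in SA and the highest values in MA libraries 3 (2214), 4 (792) and 5 (561). All 3 of the erythrocyte markers and all 6 of the microglia markers tested lay above 0, with medians of 1.02 and 0.49 on the log2 scale. Of the 5 astrocyte markers 4 lay above 0, with a median of 0.31, and 3 were higher at an unadjusted p under 0.05. MA libraries 4 and 5, the highest for Mrpl42 and Mrps21, also had the highest MA sums of microglia markers (471 and 454 FPKM), astrocyte markers (1054 and 814) and oligodendrocyte markers (13939 and 11918). Oligodendrocyte sums were as large in SA libraries 2 and 3 (12269 and 14323). Of the 5 oligodendrocyte markers, 3 lay below 0 and 2 above, with a median of -0.25. The part of these cell types in the member values was not tested. Without MA libraries 3 and 4, 2 members were higher (against a background of 2.61%) and 1 lower (against 1.2%) at an unadjusted p under 0.05, and the medians were 0.01 and 0.02.

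The members varied little between striatum libraries. The median SD of a member on the log2 scale was 0.117 in SA and 0.151 in MA, against 0.192 and 0.207 for all rows. Most of those rows had lower levels than the median member, and rows of matching level were not compared. By contrast, cytosolic ribosomal proteins had a median log2 fold change of 0.25 with 62 of 67 above 0, and subunits of respiratory complex I, part of whose core is translated on mitochondrial ribosomes, had 0.09 with 27 of 32 above 0, neither list holding a DEG. MA libraries 4 and 5 were again the highest for these lists.

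**Figure D2:**
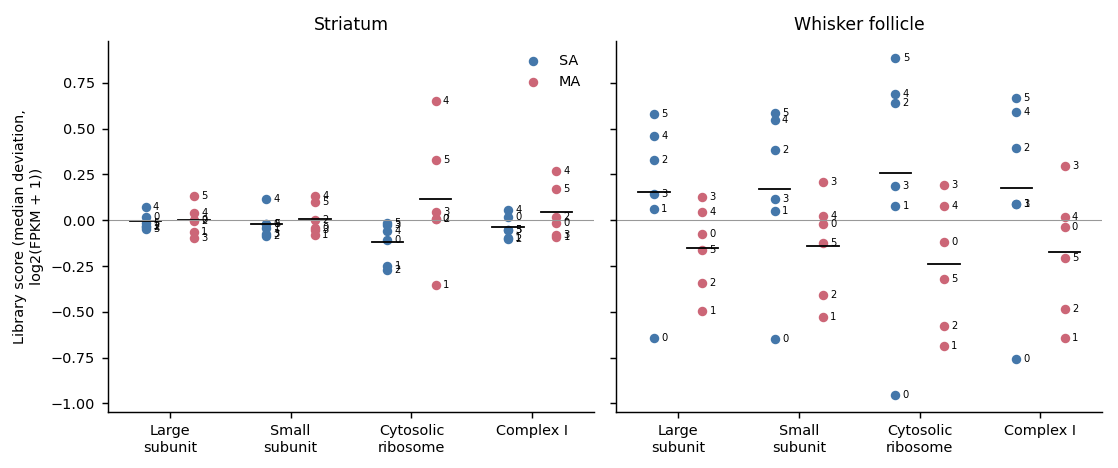
Score of each library (median deviation of log2(FPKM + 1) of a list from its mean over the 12 libraries of the tissue) for both mitoribosomal subunits, cytosolic ribosomal proteins and complex I, with a point for each library numbered by its index and a line at the group mean. Member scores span -0.10 to 0.13 in the striatum and -0.65 to 0.59 in the follicle, where SA library 0 is the lowest of all 12 for each list.

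In the whisker follicle, which the study examined as an accessible tissue, most members were lower in MA rats, but none passed the test while all 12 libraries were used. The fold changes of 58 of 66 members lay below 0 (87.9%, against 51.7% of all rows), 32 of 38 of the large and 26 of 28 of the small subunit. The median log2 fold change was -0.32 for the large and -0.33 for the small subunit, against -0.01 for all rows. The count of DEGs was 0 of 66, against a background of 0% (0 of 9138 rows), with limma adjusted p values from 0.465. At an unadjusted p under 0.05, 6 members were lower (Mrpl13, Mrpl32, Mrpl41, Mrps22, Mrps33 and Mrps36; 9.09% against a background of 5.18%) and 0 were higher (against 5.25%).

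**Figure D3:**
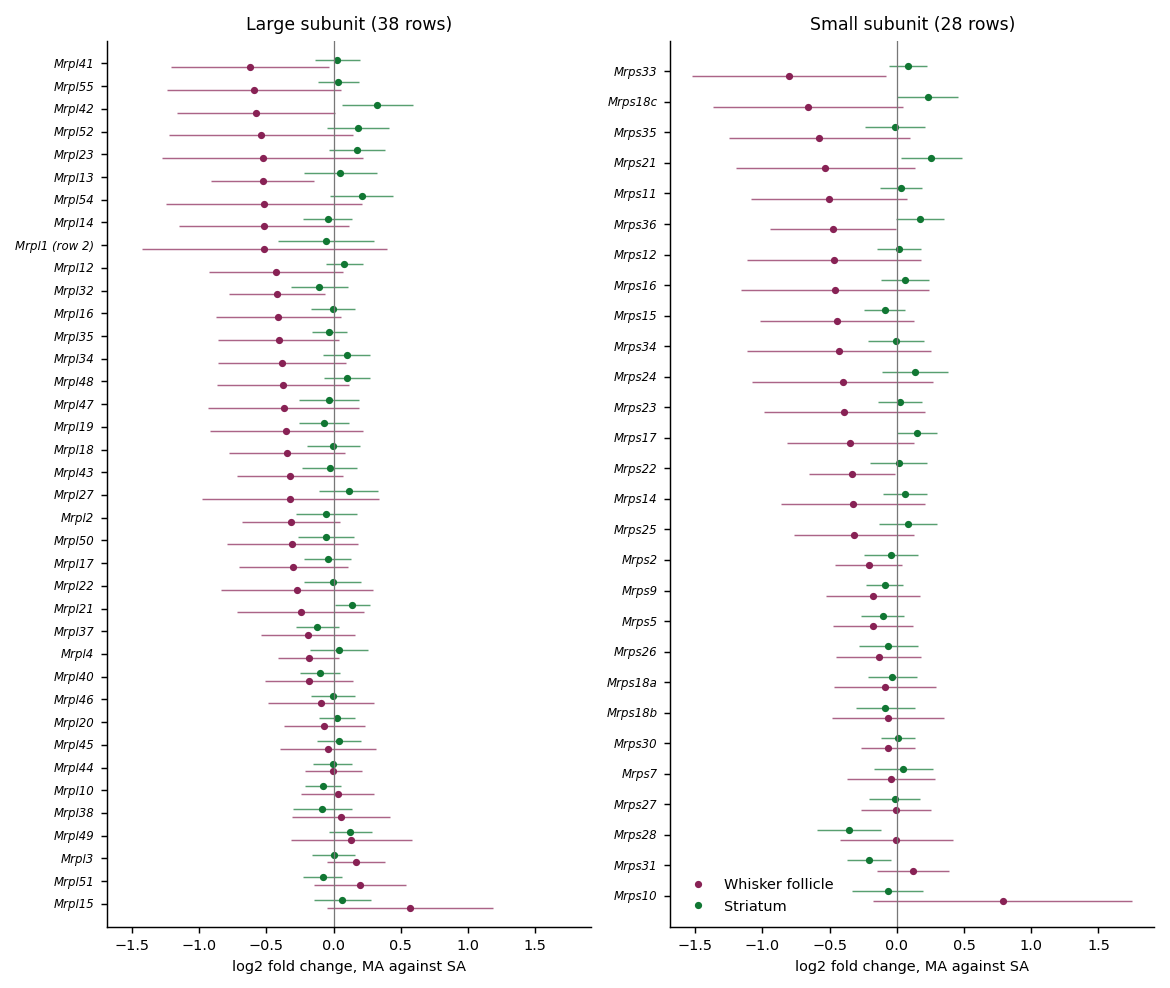
Log2 fold change of MA against SA for each of the 38 large and 28 small subunit rows, with the 95% interval as a line, whisker follicle in purple and striatum in green. In the follicle 58 of 66 points lie left of 0 with wide intervals, whereas the striatum points gather near 0.

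Mrpl13, the counterpart of a bacterial protein of early large subunit assembly, had the smallest p in the follicle. Its SA values were 50.6, 88.7, 99, 99.3, 108 and 104 FPKM in libraries 0 to 5 and its MA values were 68, 48.6, 61.3, 66.1, 72.8 and 55.6. All SA libraries but library 0 were above every MA library. The means were 91.6 ± 21.1 in SA and 62 ± 8.84 in MA, a log2 fold change of -0.53 (SE 0.18, 95% interval -0.91 to -0.14, adjusted p = 0.465). Without SA library 0 it was -0.69 (adjusted p = 0.013).

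Mrpl32, a large subunit protein that matures through the mitochondrial m-AAA protease and whose promoter carries the NRF1 core, ranged from 30.9 to 57.5 FPKM in SA with a median of 45.4, and from 24.2 to 41.3 in MA with a median of 34.4. Its lowest SA value was again that of library 0, and the log2 fold change was -0.42 (SE 0.17, adjusted p = 0.465). Mrpl41, found only in mitochondria, ranged from 44.3 to 160 FPKM in SA with a median of 118, and from 44.5 to 89.9 in MA with a median of 64.4 (log2 fold change -0.62, SE 0.27, adjusted p = 0.465). The other large subunit members with small p values, Mrpl2, Mrpl12, Mrpl14, Mrpl16, Mrpl35, Mrpl42, Mrpl43 and Mrpl55, had log2 fold changes from -0.59 (Mrpl55) to -0.32 (Mrpl2), with adjusted p values of 0.465 to 0.466. Mrpl12, which forms the stalk that binds translation factors and has also been linked to the mitochondrial RNA polymerase, averaged 55.6 ± 16.4 FPKM in SA against 40.3 ± 9.8 in MA. Without SA library 0 these 8 members had log2 fold changes from -0.83 (Mrpl55) to -0.43 (Mrpl43), with adjusted p values from 0.0255 (Mrpl14) to 0.0804 (Mrpl43).

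Among small subunit members, Mrps33 had the largest negative fold change. Its SA values were 116, 325, 412, 349, 433 and 620 FPKM in libraries 0 to 5 and its MA values were 236, 134, 158, 255, 245 and 164. The range of the SA group held all MA values because of library 0, and the log2 fold change was -0.80 (SE 0.33, 95% interval -1.52 to -0.08, adjusted p = 0.465). Mrps22, a small subunit protein whose mutation causes a severe respiratory chain disorder in people, ranged from 10.5 to 19.1 FPKM in SA with a median of 17.2, and from 10.4 to 15.8 in MA with a median of 12.6 (log2 fold change -0.33, SE 0.15, adjusted p = 0.465). Mrps36, the member now assigned to the oxoglutarate dehydrogenase complex, ranged from 16.6 to 41.2 in SA and from 15.1 to 29.4 in MA (log2 fold change -0.47, SE 0.22, adjusted p = 0.465). Mrps2, Mrps11 and Mrps35 had log2 fold changes of -0.21, -0.51 and -0.58. With SA library 0 left out, Mrps36 was at -0.65 (adjusted p = 0.0233), Mrps11 at -0.72 (0.0278) and Mrps2 at -0.27 (0.0884).

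The paralogs Mrps18a, Mrps18b and Mrps18c are related versions of the same bacterial protein. Mrps18c averaged 81.2 ± 35.4 FPKM in SA against 46.2 ± 9.47 in MA (log2 fold change -0.66, SE 0.33, adjusted p = 0.465). Mrps18a was at 58.6 ± 13.6 and 54.5 ± 10.8 (log2 fold change -0.09, SE 0.17), and Mrps18b at 71.6 ± 18.9 and 67.9 ± 16.1 (log2 fold change -0.07, SE 0.19). Leaving out SA library 0, they were at -0.21 (adjusted p = 0.29) and -0.17 (adjusted p = 0.513). The differences between the paralogs were not tested. Reads shared between paralogs could be split by the quantification.

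A few members lay near or above 0. Mrpl44, a protein with a ribonuclease-like fold, had a log2 fold change with a 95% interval of -0.21 to 0.21 at 26.5 ± 2.34 FPKM in SA and 26.6 ± 2.86 in MA, and Mrps30 one of -0.26 to 0.14. The largest values above 0 were those of Mrps10 (0.79) and Mrpl15 (0.57). Mrpl15 was at 13.6, 6.93, 4.07, 6.29, 4.78 and 2.1 FPKM in SA libraries 0 to 5 and at 7.75 to 11.8 in MA. In contrast to most members, its highest SA value was in library 0 and its lowest in library 5 (SE 0.29, 95% interval -0.05 to 1.19, adjusted p = 0.465). Mrps10, whose promoter carries the GABPA and YY1 motifs, was spread widely, from 1.67 to 24.8 FPKM in SA and from 9.07 to 26 in MA (SE 0.45, adjusted p = 0.466). Both values leaned on SA library 5, without which Mrps10 was at 0.43 and Mrpl15 at 0.36, and without SA library 4 Mrps10 was at 1.09.

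**Figure D4:**
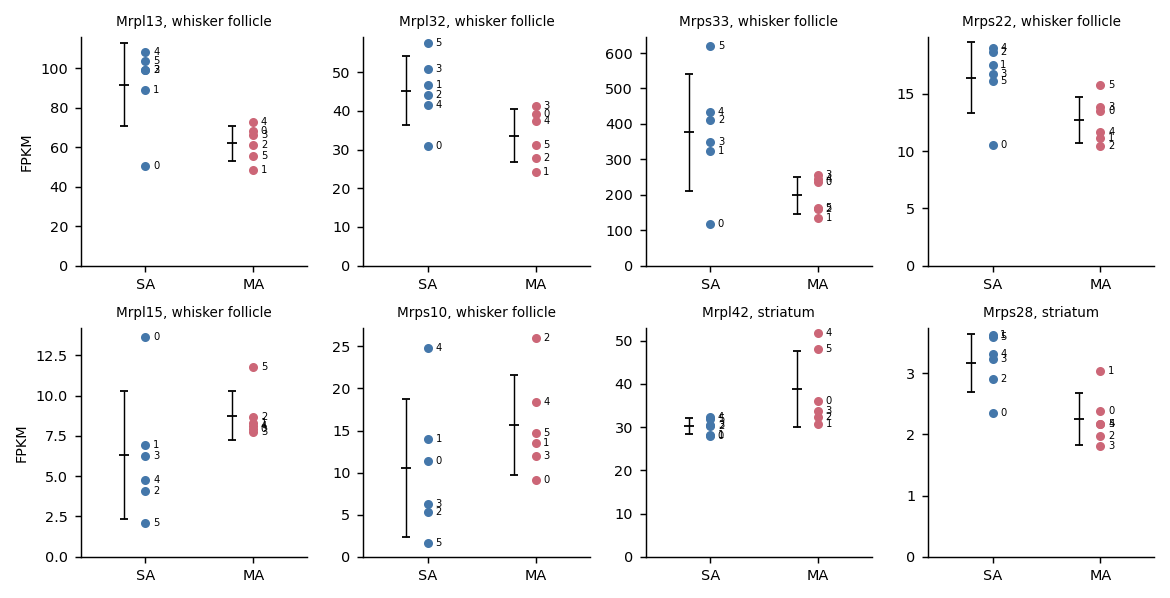
FPKM of 8 members in each library, numbered by index, for SA and MA, with the mean and SD of 6 libraries to the left of the points; 6 panels are from the whisker follicle and 2 from the striatum, and each has its own axis from 0. SA library 0 is the lowest SA point for Mrpl13, Mrpl32, Mrps33 and Mrps22 and the highest for Mrpl15.

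The library scores of both subunits were spread widely in the follicle, in MA as well as in SA. Scores of the large subunit were -0.64, 0.06, 0.33, 0.14, 0.46 and 0.58 in SA libraries 0 to 5 and -0.07, -0.50, -0.34, 0.13, 0.04 and -0.16 in MA libraries 0 to 5, and those of the small subunit ran from -0.65 to 0.59 in SA and from -0.53 to 0.21 in MA. SA library 5 was the highest SA library for 41 members (62.1%, against 28.7% of all rows) and library 4 for 20 (30.3% against 12.6%). MA library 1 was the lowest MA library for 42 (63.6% against 24.2%) and MA library 3 the highest for 45 (68.2% against 23.7%). The median SD of a member on the log2 scale was 0.482 in SA and 0.301 in MA, against 0.333 and 0.244 for all rows. Members with higher levels had more negative fold changes (rank correlation -0.537 over 66 genes measured in the same libraries, also at -0.532 without SA library 0), whereas in the striatum the correlation was 0.545. The same correlation was not computed over all rows, and fold changes on this scale are understated for low genes.

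**Figure D5:**
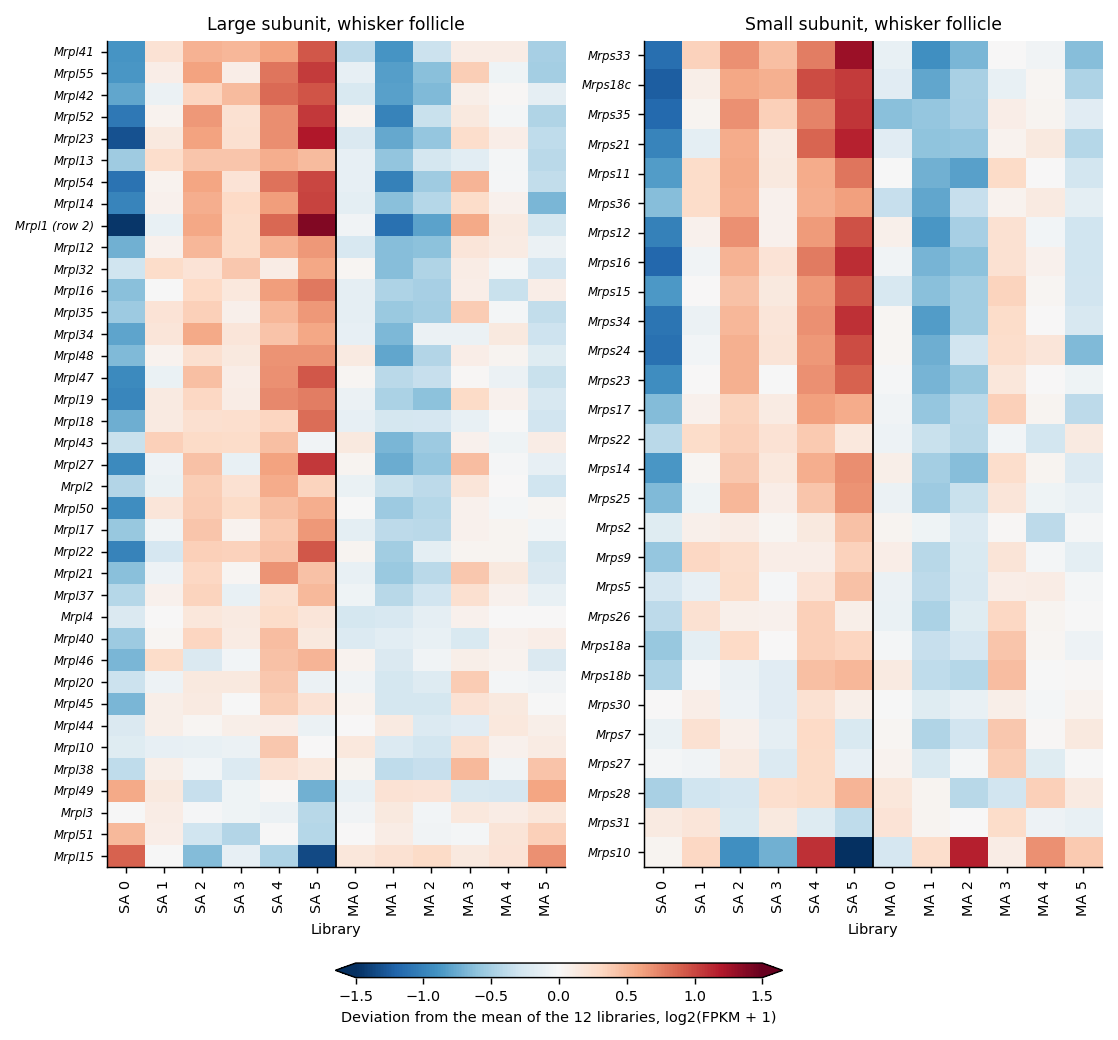
Deviation of log2(FPKM + 1) from the mean of the 12 whisker follicle libraries for each large (left) and small (right) subunit row, ordered by log2 fold change, blue below and red above the mean, with SA libraries left and MA libraries right of the black line. SA library 0 is blue for most rows, SA libraries 4 and 5 are mostly red, and Mrpl15, Mrpl49 and Mrpl51 are red in SA library 0.

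Other lists showed the same order of libraries. Cytosolic ribosomal proteins had scores of -0.95 in SA library 0 and 0.08 to 0.89 in the other SA libraries, and -0.68 to 0.19 in MA. Their median log2 fold change was -0.49, with 78 of 83 below 0, and that of complex I subunits was -0.34, with 29 of 32 below 0. Hair shaft keratins differed the opposite way, with 6 of 6 above 0, a median of 1.13 and 3 at an unadjusted p under 0.05, and no DEG. Their summed FPKM was 76847 in SA library 0, 15470 to 48261 in the other SA libraries and 33158 to 74133 in MA, none of the 6 markers being at 0 in any follicle library. Outer root sheath and epidermis keratins had a sum of 30231 to 71162 in SA and 29967 to 56369 in MA, with 2 above and 2 below 0. The part of these cell types, or of depth, in the member values was not tested.

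Without SA library 0 the follicle comparison called 22 of 66 members lower, 10 of the large and 12 of the small subunit, against a background of 6.05% of 9059 rows, and 1 higher (Mrpl15), against 7.41%. The median log2 fold change became -0.52 for the large and -0.50 for the small subunit, against -0.02 for all rows, and 60 members lay below 0. Since that library was the lowest SA library for most members, leaving it out raised the SA means and narrowed their spread by construction. Mrps33 had the largest log2 fold change, -1.11 (SE 0.21, adjusted p = 0.0168), followed by Mrps18c at -0.97 (adjusted p = 0.0168), Mrps35 at -0.87 and Mrpl41 at -0.86 (adjusted p = 0.0188). Mrpl32 and Mrps22 passed the adjusted p (0.0278 and 0.0226) but not the fold, at -0.52 and -0.45. Mrpl15 was at 0.80 (SE 0.21, adjusted p = 0.0248).

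Between the 5 remaining SA and the 6 MA libraries, the ranges lay apart with MA lower for 9 members (Mrpl13, Mrpl18, Mrpl32, Mrpl34, Mrpl41, Mrpl50, Mrps18c, Mrps22 and Mrps33), against a background of 4.57%, and with MA higher for 1 (Mrpl15), against 2.65%. With all 12 libraries the ranges overlapped for every member, a count for which no share over all rows is given. The same library also mattered to the other lists: without it 45 of 84 cytosolic ribosomal proteins and 12 of 32 complex I subunits were called lower, and 3 of 6 hair shaft keratins and 1 complex I subunit were called higher.

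Whether MA and SA differed more in 1 tissue than in the other was asked with an interaction term. It called 0 of 66 members, against a background of 0.0244% (2 of 8212 rows), with adjusted p values from 0.387. The median difference, follicle effect minus striatum effect, was -0.31 for the large and -0.37 for the small subunit, against -0.02 for all rows. At an unadjusted p under 0.05, 9 members had a lower effect in the follicle (13.6% against a background of 7.67%) and 1 a higher one (Mrps31; 1.52% against 4.82%). Mrpl42 had the smallest p, with a difference of -0.90 on the log2 scale (SE 0.31, 95% interval -1.54 to -0.26, adjusted p = 0.387). It was followed by Mrps36 (-0.65), Mrpl13 (-0.58), Mrps33 (-0.88) and Mrps18c (-0.89), all at an adjusted p of 0.387. Without follicle SA library 0, 23 members were called lower, against a background of 8.11%, and 1 higher, against 6.55%. Since columns are not tied to rats, the interaction treats the libraries as separate animals.

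The wider machinery of mitochondrial translation was read from lists of its other genes, and none of these lists held a DEG in either tissue with all libraries. The 6 ribosomal proteins without an Mrpl or Mrps symbol (Aurkaip1, Chchd1, Dap3, Gadd45gip1, Ict1 and Ptcd3) all lay below 0 in the follicle, with a median of -0.41. Chchd1, a small subunit protein, had a mean of 240 ± 115 FPKM in SA rats against 127 ± 38.3 in MA rats (log2 fold change -0.76, SE 0.38, adjusted p = 0.465). Ict1, a peptidyl-tRNA hydrolase built into the large subunit, had -0.41, as did Aurkaip1. Without SA library 0, 4 of the 6 were called lower. In the striatum 4 of the 6 lay above 0, led by Chchd1 at 0.21 (adjusted p = 0.577).

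Translation factors and related proteins lay below 0 for 10 of 14 in the follicle, with a median of -0.12, and above 0 for 11 of 14 in the striatum, with a median of 0.06. At an unadjusted p under 0.05, Mtrf1l, a release factor (-0.41), and Slirp, which stabilizes mitochondrial messenger RNAs (-0.84, from 33 ± 16.1 to 16.6 ± 5.72 FPKM), were lower in the follicle, and Tsfm, the exchange factor of elongation factor Tu, was higher (0.32), each at an adjusted p of 0.465. Assembly and rRNA modification factors did not share the direction of the ribosomal proteins, with 8 above and 8 below 0 in the follicle. Trub2 (0.85), Dhx30 (0.22) and Eral1 (0.26), which act on mitochondrial ribosomal RNA or its granules, were higher at an unadjusted p under 0.05 (adjusted p = 0.465). In the striatum 10 of 16 lay below 0.

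Mitochondrial tRNA synthetases were split, with 10 above and 7 below 0 in the follicle and 6 above and 12 below 0 in the striatum. Lars2, which charges leucine tRNA, averaged 0.954 ± 0.847 FPKM in SA against 1.9 ± 0.471 in MA in the follicle (log2 fold change 0.64). For replication and transcription of mitochondrial DNA, 5 of 8 lay below 0 in the follicle. Top1mt, the mitochondrial topoisomerase, averaged 4.25 ± 0.64 FPKM in SA against 2.7 ± 0.246 in MA (log2 fold change -0.50, SE 0.11, adjusted p = 0.465), and Tfb2m, a transcription factor of mitochondrial DNA, had -0.38. Of the regulators of mitochondrial biogenesis, 4 of 7 lay above 0 in the follicle. Without SA library 0, whose backgrounds are given above, 1 translation factor was called lower, 1 assembly factor lower and 1 higher, and 2 tRNA synthetases, 1 gene of the mitochondrial DNA list and 1 biogenesis regulator higher. Nrf1, Yy1 and Gabpa, which encode the factors whose motifs were searched above, had log2 fold changes of 0.47, 0.43 and 0.24 in the follicle (adjusted p = 0.465, 0.504 and 0.505) and Nrf1 and Yy1 of 0.16 each in the striatum.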

How the data were processed

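RNA of the striatum and whisker follicles of 6 MA and 6 SA rats was sequenced as poly-A libraries, and the labels describe the libraries of a group as separate rats. The authors deposited FPKM in 1 table of 17711 rows. The study's methods list Cutadapt, TopHat2, Cufflinks and the rat genome rn6, whereas the processing notes of the submitters list bcl2fastq, Cufflinks 2.2.1, rn6 and STAR 2.6.0c. Neither the annotation nor a scaling across libraries is given in the sources used here. Without counts, the spread between libraries is the only error given.

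Groups were taken from column names, whose index is not tied to a rat. Each tissue was fitted on its own for MA against SA with limma 3.58.1 in R 4.3.3 (intensity trend) on log2(FPKM + 1), over all rows with a mean FPKM of at least 1, with Benjamini-Hochberg adjustment over all rows tested. Fold changes are on that scale and are understated for low genes. All tests were two-sided and were tested on simulated data first. The interaction used all 24 libraries. Figures were drawn with matplotlib 3.10.9. Library scores are the median, over the rows of a list, of the deviation from the row's mean in that tissue. The genes named are, per tissue, the 12 large and 8 small subunit members with the smallest p, the 5 with the smallest interaction p, the 3 highest and lowest of each subunit, the 3 with the largest tissue difference in each direction, repeated or filtered rows, Mrps30, Mrps18a to Mrps18c, Mrps36 and Mrpl12, and 3 genes of each list. Of these, 1 list gene is left out here. Members, lists and rules were chosen with earlier results of these data known. Other genes named were chosen after their values were seen. Of the 69 symbols, 68 matched a RefSeq rat gene and 1 a synonym. No member stood on a row that joins symbols. Alternatives were other pseudocounts (0.5 and 0.1), filters, scalings, library weights, no trend, another subunit assignment and leaving out libraries.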

Additional observations from a re-analysis of the deposited data

Results flagged for a closer look

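For 46 members taken by the naming rule and the subunit scores, 192 groups of 6 libraries were examined for a library far from the other 5, and 10 (5.21%) had one, about the share that chance gives (1 in 20 groups). In follicle SA library 0 the low value stood far from the others for Mrpl13 (50.6 FPKM, others 88.7 to 108), Mrps9 (34.4, others 55.5 to 66.2) and Mrps22 (10.5, others 16.1 to 19.1). High single values were Mrpl10 in follicle SA library 4 (49 FPKM, others 32.5 to 37.2), Mrpl20 in follicle MA library 3 (145, others 92.7 to 109) and Mrpl15 in follicle MA library 5 (11.8, others 7.75 to 8.65). In the striatum they were Mrpl37 in MA library 5 (29.9 FPKM, others 23.8 to 25.3), Mrpl34 in MA library 4 (75.7, others 57.6 to 63.7), Mrps18a in MA library 4 (83.9, others 61.8 to 69.1), and the small subunit score of SA library 4 (0.1148, others -0.0843 to -0.01869).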

How the results depend on the processing

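In the striatum no member was called under any alternative run. Members higher at an unadjusted p under 0.05 numbered 1 with a common median, 1 with quantile normalization and 3 without a trend, and 1 was lower with a mean FPKM of at least 5, while without MA libraries 3 and 4 there were 2 higher and 1 lower. Leaving out 1 library gave 1 to 9 higher (9 without MA library 1, 1 without SA library 2 or MA library 5, 2 without SA libraries 0 or 1 or MA libraries 2 or 4, and 3 without SA libraries 3 or 5) and 2 to 3 lower (3 without MA library 5). Apart from the run without MA libraries 3 and 4, no share over all rows is given for these runs. Their counts therefore cannot be read as particular to the members.

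In the follicle, libraries weighted by limma gave 18 members called lower and 1 higher (against 5.12% and 7.57% of all rows), and 46 lower and 2 higher at an unadjusted p under 0.05 (against 21.5% and 19.8%). Leaving out 1 library gave 0 to 22 called lower and 0 to 1 higher, both from SA library 0. At an unadjusted p under 0.05 it gave 1 to 44 lower: 44 without SA library 0 (against 21.2% of all rows), 11 without MA library 3, 3 without MA library 5, 2 without SA libraries 2 or 4, and 1 without SA libraries 3 or 5 or MA libraries 1 or 2. It gave 0 to 2 higher, 2 without SA library 0 (against 18.6% of all rows) and 1 without SA library 4. For the other libraries left out no share over all rows is given, so those counts cannot be read as particular to the members. The medians stayed below 0, from -0.52 to -0.22 for the large and -0.50 to -0.23 for the small subunit. For both subunits they were lowest without SA library 0 and nearest to 0 without SA library 5.

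For the interaction, weighted libraries gave 19 called lower and 1 higher (against 7.2% and 7.96% of all rows), and 41 lower and 5 higher at an unadjusted p under 0.05 (against 20.8% and 18.6%). Leaving out 1 library gave 0 to 23 called lower and 0 to 1 higher, and at an unadjusted p under 0.05 5 to 41 lower (41 without follicle SA library 0, against 19.6% of all rows, 17 without follicle MA library 3, 5 without follicle SA libraries 4 or 5) and 0 to 3 higher (3 without follicle SA library 0, against 15.5%, 0 without striatum SA library 1, striatum MA libraries 3 or 4, follicle SA library 2 or follicle MA libraries 0 or 3). Between tissues, a common median gave medians of 1.31 and 1.3 and 1 member lower, and quantile normalization a small subunit median of 0.43. No share over all rows is given for the other libraries left out or for these scalings. Those counts therefore cannot be read as particular to the members. The cause of these moves was not tested.

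The follicle log2 fold changes of Mrps18b and Mrpl44, both close to 0, were reversed by quantile normalization, to 0.029 and 0.031, and without 1 library ranged from -0.17 to 0.025 for Mrps18b and from -0.045 to 0.039 for Mrpl44. No other fold change among those recomputed was reversed, these being the members with the smallest p in each comparison, Mrps18a and Mrps30. Depth is known only relative to another library, so counting error could not be set apart from the spread. No paired analysis was possible because the column index is not tied to a rat number, so the replicate block was not run.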

Other observations

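Mitochondrial ribosomal proteins that the name rule missed, because the table writes them in lower case or under an older symbol, were mrpl9, mrpl11, mrpl24 and Mrp63. In the follicle all 4 had fold changes below 0, with a median of -0.36 on the log2 scale. Mrp63, a large subunit protein found only in mitochondria, averaged 148 ± 51.3 FPKM in SA against 106 ± 27.1 in MA (log2 fold change -0.43, SE 0.27, limma adjusted p = 0.482), and mrpl9 was at 49.2 ± 8.92 and 41.9 ± 5.04 (log2 fold change -0.21, SE 0.14, adjusted p = 0.49). In the striatum the 4 fold changes ran from -0.15 to 0.05. Counting these rows as members, a choice made after the data were seen, left every count for MA against SA and for the interaction as it was with all libraries, and raised the members called higher in the follicle than in the striatum of SA rats from 39 to 43.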
